A study of Mus musculus with 16 samples.

Results

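The myogenic regulators are the transcription factors that set up and maintain the skeletal muscle lineage. Chromatin accessibility at 7 of their genes, Myod1, Myf5, Myf6, Myog, Pax3, Pax7 and Six4, was described in 8 mouse tissues. The genes were chosen by name from 21938 protein-coding genes of the GENCODE vM21 annotation (mouse genome build GRCm38), not by a measured value, and all 7 were found. The assay was ATAC-seq, where Tn5 transposase cuts open chromatin and leaves adapters for sequencing. The libraries came from muscle, heart, brown adipose, white adipose, liver, spleen, lung and kidney of adult male C57BL/6 mice. The mice were either fed without restriction or kept fasting for a full day, and the labels name no engineered allele. Tissue of the mice of a state was pooled into 1 library per tissue, which gave 16 libraries and no replicate of any tissue and state.

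MyoD (Myod1), Myf5, MRF4 (Myf6) and myogenin (Myog) are the basic helix-loop-helix factors of muscle. They pair with E proteins and bind E-box motifs in muscle genes. Pax3 acts in the muscle progenitors of the embryo and Pax7 marks satellite cells, the stem cells of adult muscle. Six4 is a homeodomain factor that works with EYA cofactors upstream of the helix-loop-helix genes.

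Each library was a list of peak summits, with between 298996 and 299529 summits per list. The value used here is the promoter percentile. This is the rank of the -log10 p of the strongest summit within 3 kb of an annotated start of the gene, among all summits of the same list. It runs up to 100 for the strongest summit and is 0 where the list holds no summit there. The lists were ended by length, so their weakest -log10 p ran from 2.48 to 7.11, and a gene at 0 was below that level and was not shown to be closed. The study took regions with q (false discovery rate) under 0.01 as open. Between 69.9% and 100% of the summits of a list met this, and all listed summits were used here. The background tags of a library, the tag number expected at a random site, are proportional to depth. They were 6.39 in fed and 10.6 in fasting muscle and lay between 2.80 and 12.8 in the other libraries. In bulk tissue, fewer cells of a type and less open chromatin per cell cannot be told apart.

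Fibre genes of skeletal muscle ranked higher in the muscle libraries than in those of other tissues by their median. The median of 10 fibre genes, Acta1, Ckm, Mylpf, Tnnt3, Myh4, Myh1, Tnnc2, Tnni2, Atp2a1 and Pvalb, was 92.8 in muscle, the mean of both states being taken for each gene, and none was at 0. It was 76.2 in heart, 66.2 in spleen, 60.9 in white and 31.9 in brown adipose, and at most 32.8 in liver, lung and kidney. All genes with a promoter summit in at least 1 library had a median of 92.2 in muscle and between 89.8 and 93.2 elsewhere. By median, the fibre genes were thus near the typical promoter in muscle and below it in the other tissues. Both muscle libraries ranked above all 14 others at 6 of the 10, against 6.27% of all genes tested. Muscle had the highest mean at 7 of the 10. Acta1 was higher in white adipose (93.7 against 93.4 in muscle) and Tnni2 in spleen (94.3 against 92.3). Mylpf, at 97.2 in muscle, was higher in white (99.9) and brown adipose (99.5), lung (99.3), spleen (97.8) and kidney (97.5). Of the other markers, those of heart muscle had a median of 11.4 in muscle, with 1 of 5 at 0, and those of spleen lymphocytes 8.20, with 1 of 5 at 0. The adipocyte markers had a median of 58.1 in muscle and none at 0, and the brown adipocyte markers 75.5 with 1 of 5 at 0. The lung markers had a median of 33.6 in muscle with 2 of 5 at 0, and the medians of liver and kidney markers were 0, with 4 and 3 of 5 at 0. The part of other cells in the results below was not tested.

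Promoter sequences are shown before the values, for Myog and Six4 because the muscle summits lay at the start, and for Myf5 because its promoter was low in CpG. Promoters of Myf5, Myog, Pax7 and Six4 (4 of 7) matched the RefSeq table of build GRCm38.p6, and Myod1, Myf6 and Pax3 did not. The 250 bases before the RefSeq start were searched, and those that also precede the GENCODE start are given for Myog, Myf5 and Six4, 5′ to 3′ on the strand of the gene, in lower case. Capitals mark a match, on either strand, to 1 of 5 letter patterns. These were the E-boxes CAGCTG and CACCTG, the MEF3 core TCAGGTT that Six4 and its relatives bind, and TATAAA. The last was CTA and TAG with any 4 bases between, called the CTA-TAG pattern here. It takes any bases in the middle and has fixed ends, so it does not tell whether a site of the MEF2 factors is present. No pattern contains another.
Myog promoter (chr1:134289754-134289988, plus strand): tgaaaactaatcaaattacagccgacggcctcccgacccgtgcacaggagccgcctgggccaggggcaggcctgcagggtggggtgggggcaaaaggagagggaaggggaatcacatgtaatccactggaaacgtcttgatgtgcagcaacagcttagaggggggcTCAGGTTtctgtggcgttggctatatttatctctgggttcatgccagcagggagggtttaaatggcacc
Myf5 promoter (chr10:107486135-107486384, minus strand): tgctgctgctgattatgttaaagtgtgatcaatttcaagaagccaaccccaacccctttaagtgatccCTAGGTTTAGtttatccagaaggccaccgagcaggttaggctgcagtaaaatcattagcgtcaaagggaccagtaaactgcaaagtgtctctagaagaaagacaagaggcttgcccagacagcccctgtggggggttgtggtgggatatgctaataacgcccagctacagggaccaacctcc
Six4 promoter (chr12:73113457-73113675, minus strand): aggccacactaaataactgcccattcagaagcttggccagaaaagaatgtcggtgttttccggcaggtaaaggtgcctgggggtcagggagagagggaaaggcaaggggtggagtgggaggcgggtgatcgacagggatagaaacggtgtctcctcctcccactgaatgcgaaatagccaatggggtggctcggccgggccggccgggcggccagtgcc

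The Myog stretch held 1 TCAGGTT, a pattern present in 3.3% of 20150 such stretches before protein-coding starts. The Myf5 stretch held 1 CTA-TAG pattern, with GGTT in its middle, and 2.99% of the stretches held this pattern. The Six4 stretch printed held none of the 5 patterns. The table has another Six4 start further into the gene, and the 250 bases before it held 1 TCAGGTT. Of all stretches before starts, CAGCTG was present in 12.3%, CACCTG in 16.9% and TATAAA in 11.2%. A match of letters is a description and no evidence of binding. In the whole 300-base window of the table, from 250 before to 50 after the start, the observed over expected CpG was 0.163 for Myf5, 0.373 for Myog and 0.581 for Pax7. The Six4 windows had 0.640 at the start shown and 0.713 at the other, and the median of all promoters was 0.588. Myf5 thus had the fewest CpG of the matched genes, lower than all but 16.9% of promoters.

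To learn where the 7 genes were open, their promoter percentiles were set side by side over the 16 libraries. Among the 7, Six4, Myf6, Myod1 and Myog stood highest in muscle, Pax7 and Myf5 lower, and Pax3 was at or near the bottom there. The median of all genes tested was 92.3 in fed and 92.2 in fasting muscle. Six4 and Myf6 were above it in both states and Myod1 in fed muscle only. Myog, Pax7, Myf5 and Pax3 were below it in both. Both muscle libraries ranked above all 14 others at 4 of the 7 genes, Myf5, Myf6, Pax7 and Six4, while 6.27% of 19719 protein-coding genes with a promoter summit in at least 1 library did so. Both heart libraries ranked above all others at 1 of 7, Myog, against a background of 3.35%. No member met this rule in brown adipose (background 2.09%), white adipose (3.37%), liver (6.1%), spleen (9.32%), lung (2.69%) or kidney (5.84%). With 8 tissues, a permutation of 1 tissue against 7 cannot give a p under 0.125, so these calls are descriptions.

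**Figure D1:**
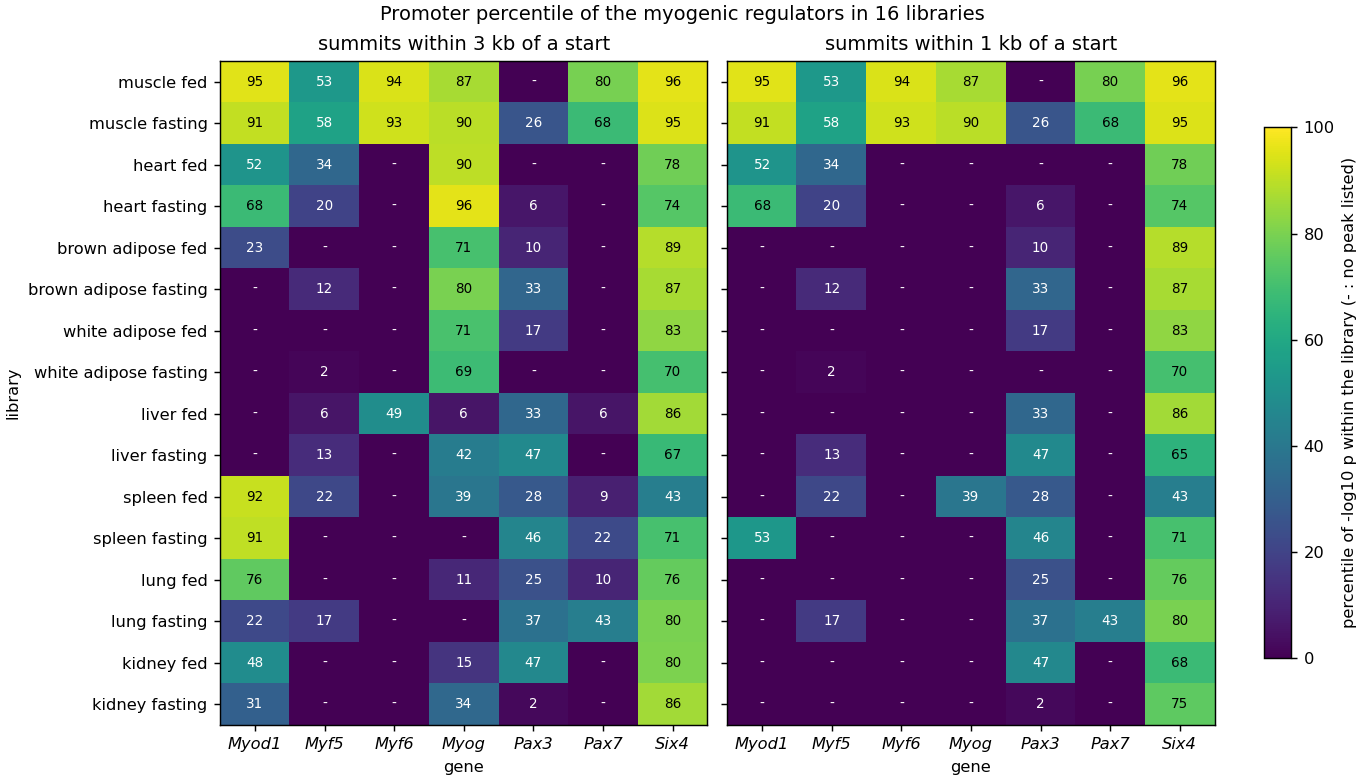
Promoter percentile (colour and number, a dash where no peak is listed) of each gene (columns) in each of 16 libraries (rows), for summits within 3 kb (left) and 1 kb (right) of a start. Myf6 and Pax7 are bright in the muscle rows, Six4 has a value in every row, the lowest 42.8 in fed spleen, and the high heart values of Myog and spleen values of Myod1 on the left are at 0 or, in fasting spleen, at 52.9 on the right.

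Myf6 encodes MRF4, the helix-loop-helix factor most abundant in adult fibres. Its promoter percentile was 94.2 in fed and 92.7 in fasting muscle. The only other library with a summit was fed liver, at 49.0, and the remaining 13 were at 0. A gene had a promoter summit in exactly 3 libraries for 2.19% of protein-coding genes, while 61.4% had one in all 16. The muscle summits of Myf6 lay at -27 bp from the start in both states, with 292 tags (95% Poisson interval 259 to 327) in fed and 436 (396 to 479) in fasting muscle, whereas the liver summit lay 1235 bp after it with 13 tags (6.92 to 22.2). These intervals, like all others here, cover counting error only.

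Myf5 is the neighbour of Myf6, on the same strand of chromosome 10, and acts early in the lineage. Its percentile was 53.3 in fed and 57.7 in fasting muscle, 33.6 and 20.3 in heart, and at most 21.5 in the remaining libraries, of which 6 were at 0. The summits of fasting heart, fasting brown and white adipose and both liver libraries did not reach q under 0.01. The muscle values did not overlap those of any other tissue, yet the peak was weak. Its strongest muscle summits lay 437 bp (fed) and 407 bp (fasting) after the start, with 2.77-fold and 2.97-fold enrichment and 49 and 94 tags.

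Pax7 was at 79.7 in fed and 68.1 in fasting muscle. It was listed in 5 of the other 14 libraries, at 5.51 in fed liver, 8.83 and 22.3 in fed and fasting spleen, and 10.3 and 42.9 in fed and fasting lung. The summits of fed liver and fed spleen did not reach q under 0.01. The muscle summit lay at -231 bp from the nearest annotated start in both states. Only 1 of the 5 other summits, that of fasting lung, lay within 1 kb of a start.

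Six4 was the most widely open of the genes, with a promoter summit in all 16 libraries. Its percentile was 95.8 in fed and 94.7 in fasting muscle. Brown adipose came next, with 89.1 and 87.0, followed by kidney with 80.3 and 86.0, and the lowest value was 42.8 in fed spleen. Muscle and brown adipose did not overlap, while the ranges of brown adipose and kidney were separated by 1 percentile point. The muscle summits lay 2 bp from the start, and the strongest kidney summits about 2.4 kb into the gene, at 2375 and 2366 bp.

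Myod1, the gene whose product can turn fibroblasts into muscle cells, was at 95.4 in fed and 91.0 in fasting muscle. Spleen was close, at 91.8 and 90.6, so that the ranges of muscle and spleen overlapped. Fed lung had 75.7, heart 51.8 and 68.1, and both white adipose and both liver libraries had no summit. The peaks were not at the same place. In muscle the strongest summit lay at -145 bp (fed) and -149 bp (fasting) from the start, with 383 (346 to 423) and 385 (347 to 425) tags. In spleen it lay 2733 and 2740 bp after the start, just past the end of the short gene, with 68 (52.8 to 86.2) and 64 (49.3 to 81.7) tags. The strongest summits of fed brown adipose and of both lung and both kidney libraries also lay there, between 2702 and 2734 bp. Muscle had this region too, at 83.9 and 76.9.

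Myog, the factor of terminal differentiation, showed the same kind of split. Its percentile was 86.7 in fed and 89.8 in fasting muscle, and 89.9 and 96.0 in heart, so that the higher muscle value lay just under the lower heart value. The adipose tissues followed with 70.9 and 79.8 (brown) and 71.4 and 68.6 (white). The muscle summits lay at -88 and -168 bp from the start, inside the promoter stretch printed above, with 140 and 295 tags. In heart and both adipose tissues the strongest summits lay between 2211 and 2236 bp after the start, near the end of the gene, with 32 to 189 tags. Muscle was listed near that position only in the fasting state.

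Counting summits within 1 kb of a start, Myod1 and Myog joined the genes called in muscle, which made 6 of 7 against a background of 6.72%. The highest other library was then at 68.1 (fasting heart) for Myod1 and at 39.3 (fed spleen) for Myog. Ranked by fold enrichment, 2 of 7, Myf6 and Pax7, remained called in muscle, against 5.94%. By fold, both brown adipose libraries led at Six4 (background 1.52%), both spleen libraries at Myod1 (7.48%) and both heart libraries at Myog (5.05%).

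**Figure D2:**
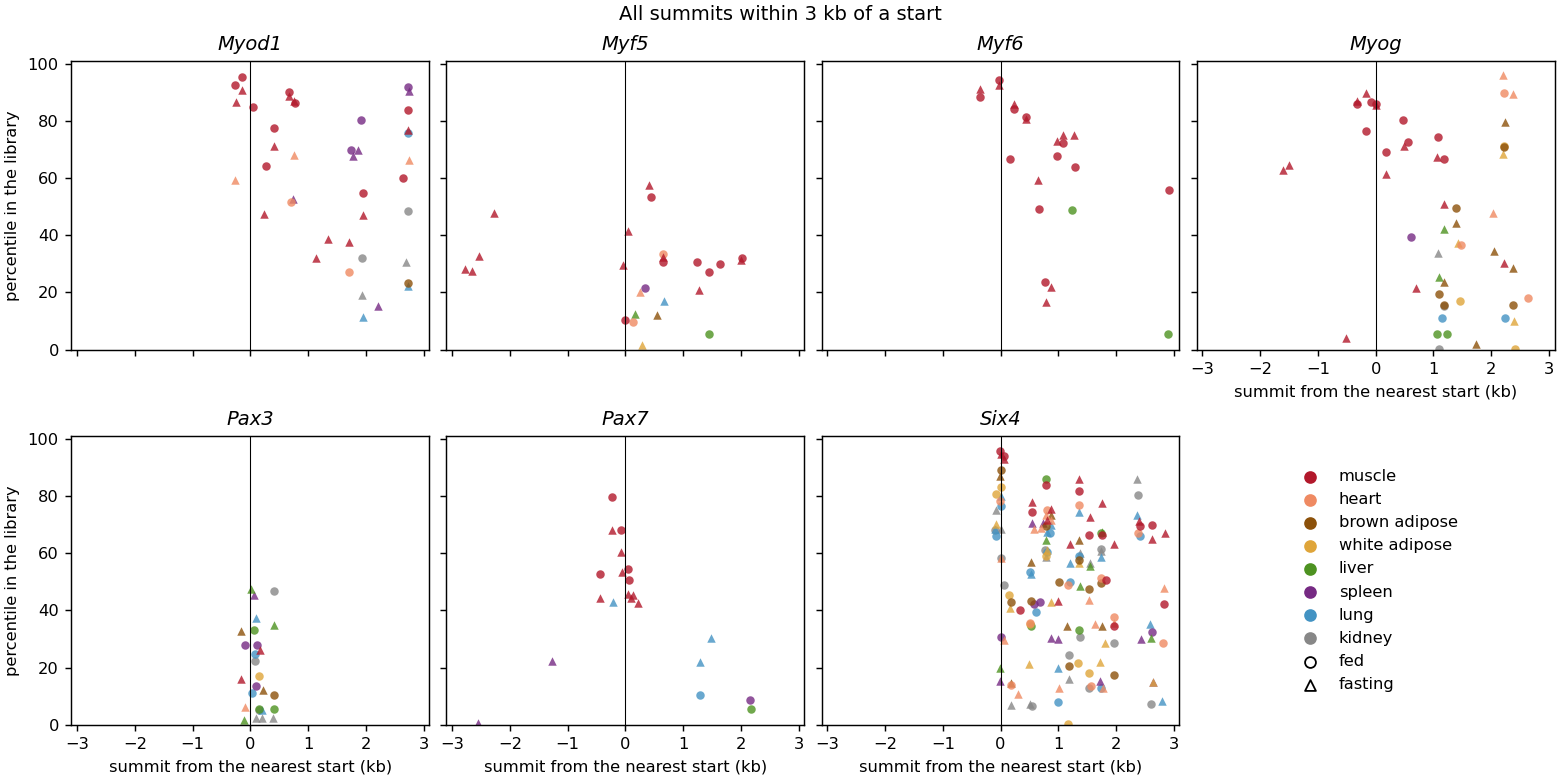
Every summit within 3 kb of a start of each gene, by its distance from the nearest start (horizontal axis, kb, positive into the gene) and its percentile within its library (vertical axis). Colours are tissues, circles fed and triangles fasting. Muscle points lead at the start of Myod1, Myf6, Myog, Pax7 and Six4, while spleen points of Myod1 gather near 2.7 kb and heart and adipose points of Myog near 2.2 kb.

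Pax3 went the other way. It had no promoter summit in fed muscle and was at 26.2 in fasting muscle. It was listed in 12 of the 14 other libraries, between 2.33 (fasting kidney) and 47.4 (fasting liver). The summit of fasting heart did not reach q under 0.01. The liver values were 33.3 and 47.4 and those of spleen 28.0 and 45.5, which overlap. The muscle mean of 13.1 stood at place 6 of the 8 tissue means, and no tissue was called. All 12 other strongest summits lay within 1 kb of a start, with 12 to 39 tags, so that each rests on few tags.

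The surroundings of the genes were described next, from the gene body extended by 20 kb on either side. Myf5 and Myf6 share most of this window and were counted as 1 locus where regions are added up. In counts of genes they are 2, although they rest largely on the same regions. The 6 loci held 255 distinct regions over all lists, of which 51 were in both muscle lists and 14 in both muscle lists and in no list of another tissue. At 32 of the 51, both muscle percentiles were above those of all other libraries. The 14 private regions are among these and lead by definition. The 51 were picked by their listing in muscle, and no share over other regions was taken, so the count is a description. At least 1 region private to muscle was found for 6 of the 7 genes, all except Pax3, while 29.3% of all protein-coding genes had one. Private regions of both libraries of another tissue were found for 5 of 7 genes in liver (background 32.7%), 3 of 7 in spleen (39.2%), 2 of 7 in kidney (41.8%) and 1 of 7 in lung (24.2%). None was found for heart (16.8%), brown adipose (19.7%) or white adipose (11.7%).

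By the number of regions listed, the Myf5 and Myf6 locus was the one most closely tied to muscle. Fed and fasting muscle listed 16 and 14 regions around Myf5 and 17 and 15 around Myf6, and no other library listed more than 7. Muscle held more regions than each other library at these 2 of 7 genes, against 3.76% of all genes. As the windows overlap, the 2 calls are not independent. All 10 regions present in both muscle lists ranked above every other library. Of these, 4 were private to muscle and lead by definition, and all 10 were picked by their listing in muscle.

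**Figure D3:**
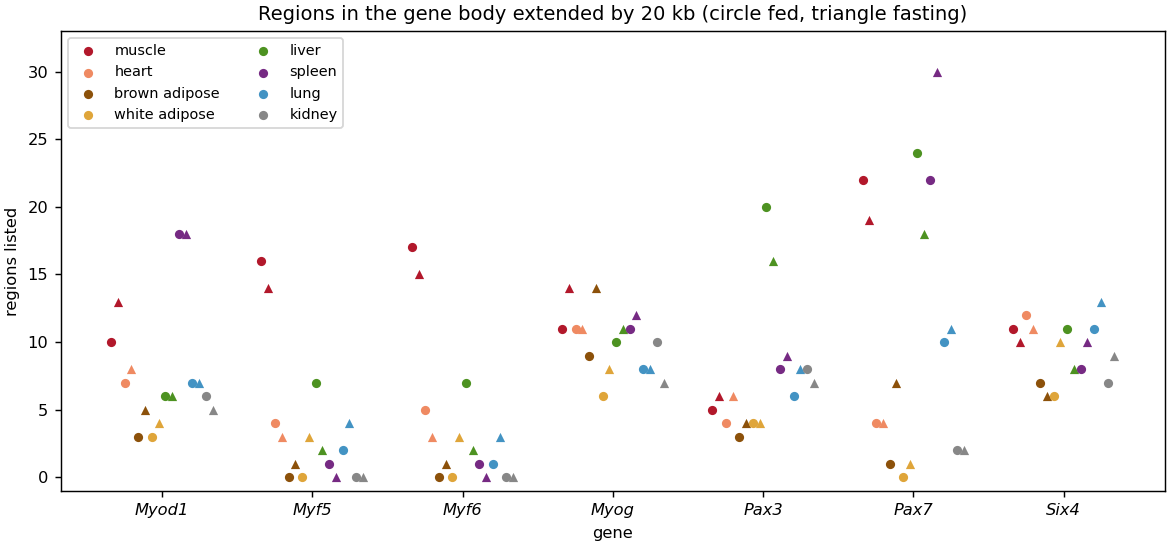
Number of distinct regions (vertical axis) listed in the gene body extended by 20 kb, by gene (horizontal axis) and library (colour for tissue, circle fed, triangle fasting). The muscle points stand apart from all others at Myf5 and Myf6, with 14 to 17 regions, whereas spleen leads at Myod1 with 18 in both states and liver at Pax3 with 20 and 16.

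The strongest region of this locus lay 5181 bp before the Myf6 start, between genes (chr10:107499541-107500221). It was at 96.0 in fed and 94.7 in fasting muscle, at 79.8 and 82.2 in heart, at 23.4 in fed liver and absent from the remaining 11 lists. Further upstream, the region 8686 bp before the start was at 84.9 and 85.7 in muscle, with 49.2 (fasting white adipose) as the highest other value. The region 11774 bp before it was at 83.7 and 89.8, with 56.3 in fed liver and no other listing. A region 3018 bp after the start was at 83.3 and 82.0, and otherwise only in fed liver at 5.51. The 4 regions private to muscle were weaker, with mean percentiles from 25.8 to 38.3. One of them lay in a coding exon and one in an intron of Myf5.

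At Myod1 the region ranked highest in both muscle lists lay 5212 bp before the start, between genes (chr7:46370806-46371602). The DNA upstream of Myod1 is known to carry muscle enhancers. This region was at 97.0 in fed and 96.5 in fasting muscle, with up to 11.6-fold enrichment. It was at 55.1 in fed spleen and 41.6 in fasting heart and was in no other list. The highest value of any library in the window was 98.3 in fasting kidney, in a region 20338 bp after the Myod1 start in the UTR of Kcnc1, where muscle was at 91.8 and 93.2. Around the gene, spleen listed 18 regions in each state, more than the 10 and 13 of muscle. The 2 regions private to muscle lay 11 and 307 bp from the start of the neighbouring gene Kcnc1, in its UTR, and not at Myod1 itself.

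At Myog a region 15150 bp before the start was at 79.9 and 82.2 in fed and fasting muscle, with 43.9 (fed spleen) as the highest other value. Beside it, the region 14153 bp before the start was at 88.6 and 95.4 in muscle and at 91.5 and 88.3 in kidney, so that these tissues overlapped. The region of highest muscle mean, 12646 bp after the start in an intron of Ppfia4, was at 93.7 and 92.7, but fasting heart had 94.6. The only region private to muscle, with a mean of 68.1, lay in the UTR of Ppfia4.

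At Six4 a region 15503 bp after the start, past the end of the gene, was at 86.5 and 90.1 in fed and fasting muscle and at 78.1 in fasting heart, with fed liver (5.51) and fed spleen (4.37) as the only other listings. A region in a coding exon of Six4 (chr12:73103654-73104207) was at 79.4 and 79.0 in muscle and in no other tissue. It was the strongest of the 14 regions private to muscle.

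Pax7 is a long gene, and its muscle regions lay mainly in introns. The region 88098 bp into the gene was at 82.5 and 89.0 in fed and fasting muscle, with fasting heart (41.6) as its only other listing. The region 35528 bp in was at 81.6 and 83.9, with 73.5 in fasting lung as the highest other value. The region of highest muscle mean, 19448 bp in, was at 90.9 and 84.6, but fasting spleen had 92.7. Pax7 had 5 regions private to muscle, led by one 438 bp before the start with a mean of 48.4. Spleen listed 22 and 30 regions around Pax7 and muscle 22 and 19.

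At Pax3 only 3 of 46 regions were in both muscle lists. The strongest, in an intron 14798 bp after the start, was at 67.2 in fed and 56.2 in fasting muscle. The strongest region of the locus in any library lay 55944 bp into the gene, at 93.7 in fed liver, and was absent from muscle.

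**Figure D4:**
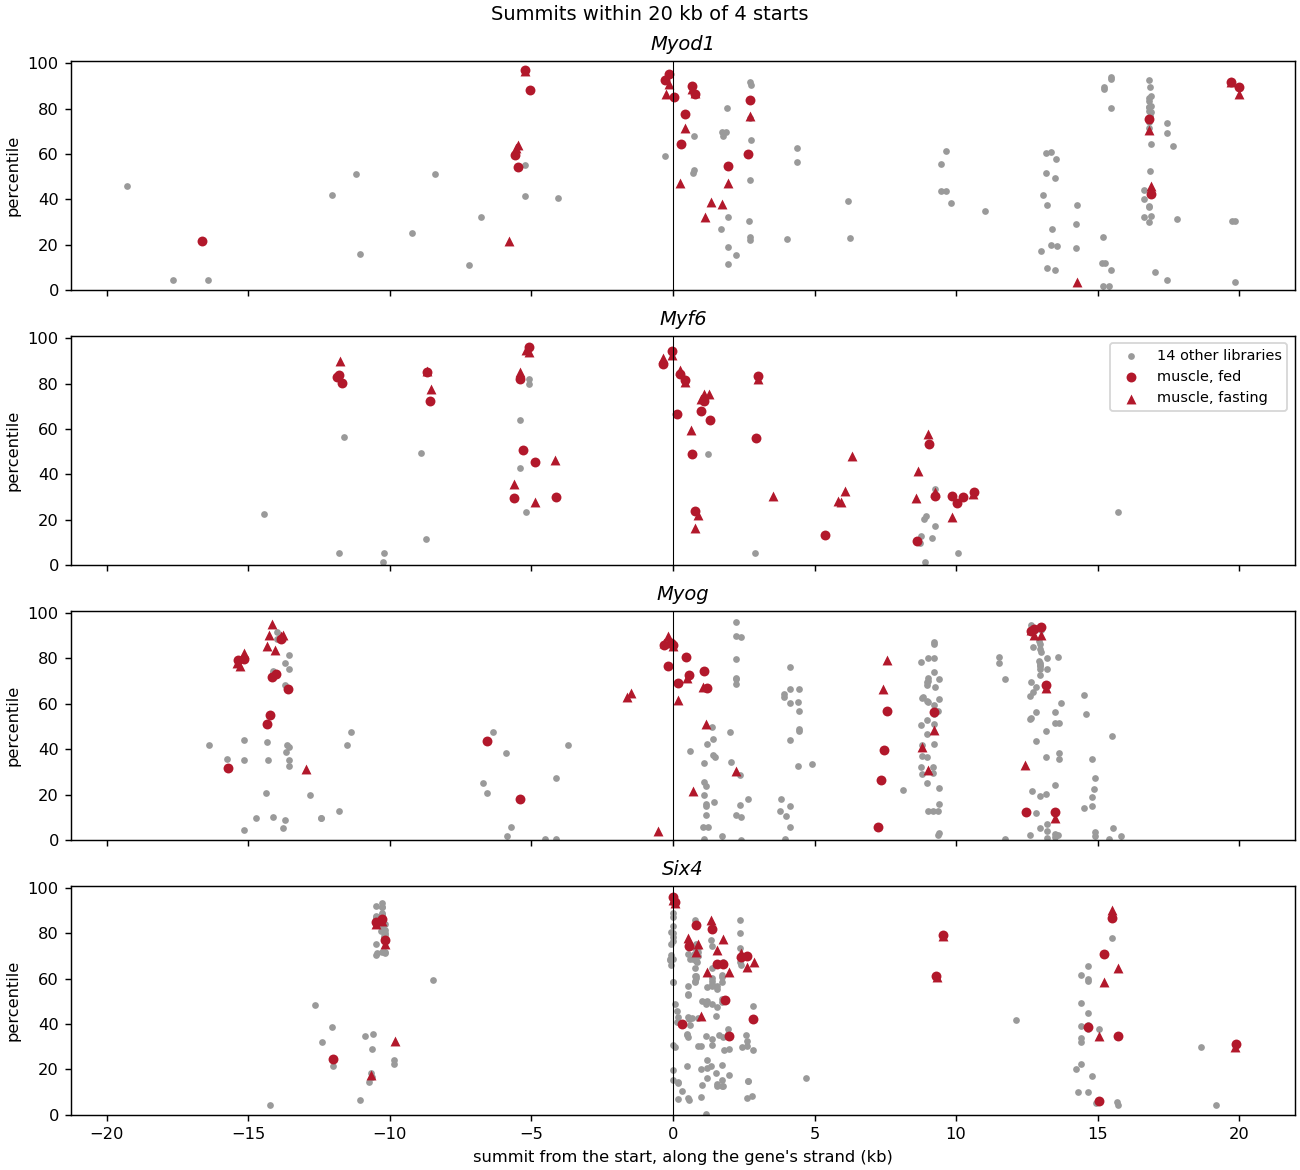
Summits within 20 kb of the starts of Myod1, Myf6, Myog and Six4, by distance from the start along the gene (horizontal axis, kb) and percentile within the library (vertical axis). Red circles are fed muscle, red triangles fasting muscle and grey points the 14 other libraries. Muscle points stand with few grey ones about 5 kb before Myod1, at 3 positions before Myf6 and 9.5 kb into Six4.

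Of these distal regions, the 201 bases around the strongest muscle summit are shown where muscle led at Pax7, Six4 and Myog, on the strand of the gene in build GRCm38, as examples of muscle-leading DNA away from a start.
Pax7 intron (chr4:139744809-139745009, minus strand): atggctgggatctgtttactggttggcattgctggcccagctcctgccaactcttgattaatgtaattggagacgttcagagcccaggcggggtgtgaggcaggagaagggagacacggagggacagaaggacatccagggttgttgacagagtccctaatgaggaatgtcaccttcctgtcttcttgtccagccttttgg
Six4 downstream (chr12:73097822-73098022, minus strand): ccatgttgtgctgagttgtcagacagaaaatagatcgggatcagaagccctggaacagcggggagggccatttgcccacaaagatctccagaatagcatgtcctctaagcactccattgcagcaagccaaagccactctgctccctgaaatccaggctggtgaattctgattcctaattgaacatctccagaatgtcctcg
Myog upstream (chr1:134274739-134274939, plus strand): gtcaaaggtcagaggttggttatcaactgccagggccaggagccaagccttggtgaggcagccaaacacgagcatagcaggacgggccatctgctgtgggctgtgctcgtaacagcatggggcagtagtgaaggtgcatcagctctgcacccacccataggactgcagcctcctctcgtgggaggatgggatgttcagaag

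None of the 3 windows held 1 of the 5 patterns. Among windows of that length around all 182422 distinct regions of fed muscle, CAGCTG was in 18.3%, CACCTG in 16%, TATAAA in 7.77%, the CTA-TAG pattern in 4.22% and TCAGGTT in 3.5%. The lack of a match says only that these letters are not in these windows.

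Fasting was compared with feeding to see whether the nutritional state moved these promoters. Over the 8 tissues, no member passed the test. The mean difference in promoter percentile, fasting minus fed, was -10.5 ± 21.2 (SD, n = 8 tissues) for Myod1, which was lower in 5 tissues and higher in 1 (p = 0.156 by exact permutation of signs, two-sided, and 0.974 after Benjamini-Hochberg (BH) adjustment over all genes). The differences of the other 6 genes lay between -6.31 (Myf6) and 4.68 (Pax3), with exact permutation p between 0.5 and 0.953. Of 19719 genes tested, 0 (0%) passed BH under 0.05 and 1036 (5.25%) had an unadjusted p under 0.05, against 0 of the 7 members. The smallest p that 8 tissues allow is 0.00781, so a gene cannot pass BH over all genes unless very many do. Tissues without a difference raise this floor. Myf6 differed in 2 tissues only, and its exact permutation p of 0.5 was the lowest its values allowed. The lack of a call therefore does not show a lack of change. A limma fit also called 0 genes, with 816 at an unadjusted p under 0.05. All tissues of 1 state share their mice, so these p-values hold for these pools alone.

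Within muscle, the tags at each summit were divided by the background tags of the library and set relative to the median promoter, whose own ratio of fasting over fed was 0.985. In every tissue, the summit of a member was the one of smallest p. The median and the shares over all promoters used the highest tag number within 3 kb, a different measure. Fasting muscle was sequenced more deeply, with a background 1.65 times that of fed muscle. The Myod1 summit had 383 tags in fed and 385 in fasting muscle, which gave a ratio of 0.618 (95% counting interval 0.535 to 0.713) and was lower than at all but 1.51% of promoters. The fold enrichment of this summit over the local background of its own list was 6.28 in fed and 6.06 in fasting muscle, with 60.1 and 62.7 tags expected there, so that on the local scale the states were close. Pax7, with 74 and 86 tags, had a ratio of 0.714 (0.517 to 0.988) and a fold of 6.20 and 4.65. Myog went the other way, with 140 and 295 tags, a ratio of 1.29 (1.06 to 1.59) and a fold of 6.01 and 7.12. The intervals of Myf5 (1.18, 0.826 to 1.70), Myf6 (0.917, 0.789 to 1.07) and Six4 (0.947, 0.822 to 1.09) included 1. The interval lay apart from 1 for 3 of the 6 genes with a summit in both states and for 18.5% of 15284 promoters. With 1 library a state this has no replicate check.

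**Figure D5:**
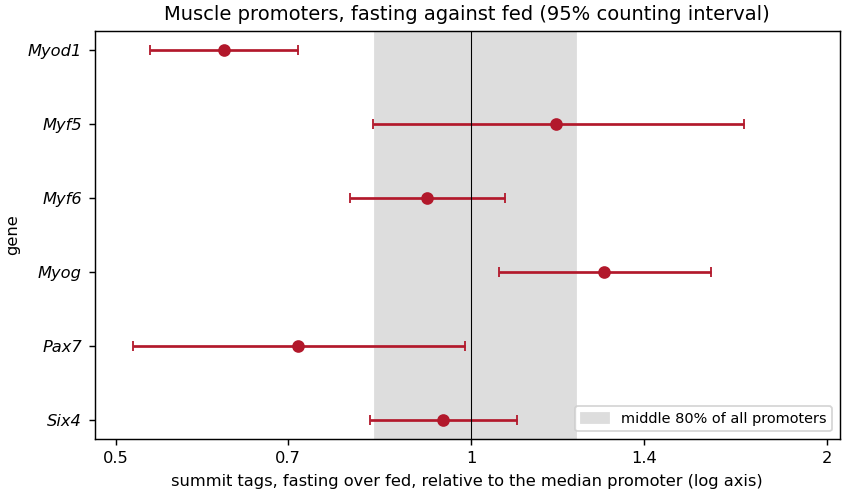
Ratio of summit tags in fasting over fed muscle (horizontal axis, log scale, scaled by background tags and relative to the median promoter) for the 6 genes with a summit in both states. Points are ratios, bars 95% counting intervals and the grey band the middle 80% of all promoters. Myod1 (0.618) and Pax7 (0.714) lie left of the band, and Myog (1.29) right of it. The band uses the highest tag number within 3 kb, the points the summit of smallest p.

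Outside muscle, the interval lay apart from 1 for Myod1 in lung, Myog in heart, Pax3 in kidney and Six4 in liver. It included 1 for all other pairs of gene and tissue with a summit in both states, which were the larger number. Between 7.24% and 29.7% of all promoters had an interval apart from 1 in the tissues named below. The pairs given are therefore descriptions and do not set the members apart. Myod1 had fewer tags in fasting lung, with 64 in fed and 24 in fasting at the region past the gene end. The ratio relative to the median promoter of lung was 0.440 (0.263 to 0.713), beside 22.8% of lung promoters with an interval apart from 1. In heart, the Myog region near the gene end had 42 tags in fed and 64 in fasting and a ratio of 1.54 (1.03 to 2.33), beside 7.24% of heart promoters. In kidney, Pax3 had 31 tags in fed and 15 in fasting and a ratio of 0.503 (0.252 to 0.960), beside 12.4% of kidney promoters. In liver, Six4 had 29 and 23 tags at summits 964 bp apart, and a ratio of 0.441 (0.243 to 0.789), beside 20.9% of liver promoters. The median liver promoter itself had a ratio of 1.79, and without that scaling the Six4 interval included 1 (0.787, 0.435 to 1.41). In brown adipose, where the median promoter itself had a ratio of 0.547, Six4 had 332 and 77 tags and a relative ratio of 0.801 (0.617 to 1.03), beside 29.7% of promoters with an interval apart from 1.

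The partners, inhibitors and targets of the factors were described from a list of 41 genes. Both muscle libraries ranked above all others at 11 of 41, against 6.27% of all genes, and the median of the list in muscle was 92.5, close to the 92.2 of all genes. Among 6 relatives of Six4 and EYA cofactor genes these were Six2 (93.2 in fed and 91.9 in fasting muscle) and Eya4 (92.2 and 92.3). Of 4 MEF2 genes it was Mef2b (99.5 and 99.5), and of 3 E protein genes Tcf3 (99.3 and 99.4). Of 9 inhibitor genes it was Msc (73.0 and 76.6), which encodes musculin. Of 11 progenitor factors and receptors they included Lbx1 (91.4 and 92.6), the satellite cell receptor gene Megf10 (86.5 and 86.3) and Cdh15 (96.3 and 96.0), which encodes M-cadherin. Of 8 fusion and target genes they were Chrna1 (85.2 and 82.0), a subunit of the acetylcholine receptor, and Klhl41 (92.2 and 91.4). Heart was called at 2 of 41, Meox1 and Meox2, against 3.35% of all genes. Mymk, which encodes the fusion protein myomaker, was at 0 in fed and 26.2 in fasting muscle. None of the 41 passed BH for fasting against fed, and 4 had an unadjusted exact permutation p under 0.05, among them Eya4 (p = 0.0156), Msc (p = 0.0156) and Mymx (p = 0.0312).

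Genes whose promoter percentiles ran most like those of a member over the 16 libraries were looked up among 17754 genes with a summit in at least 4 libraries. Both states of a tissue share that tissue, so the 16 points are not independent. Myf6, with 3 libraries, was left out. The closest gene to Myf5 was Klhl41 (Pearson r = 0.93), followed by F830016B08Rik (0.90) and Fgf6 (0.90). Those closest to Pax7 were Mettl11b (0.94), 4930558C23Rik (0.93) and Gm6133 (0.92). Myod1 ran closest with Arpp21 (0.91), Plcb2 (0.87) and Tnfrsf18 (0.85), and Myog with Kcna5 (0.93), Opn4 (0.90) and Dpysl4 (0.90). Six4 ran closest with Acvr1 (0.89), Upp2 (0.89) and Usp50 (0.88), of which Acvr1 and Upp2 had the same muscle values. Pax3 had weaker matches, 2810021J22Rik (0.76), Fam19a1 (0.75) and Gcc1 (0.74).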

How the data were processed

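Per the labels and the study's methods, the authors aligned reads to GRCm38 with Bowtie2, removed duplicate and mitochondrial reads, moved read ends to the Tn5 cut, ran MACS2 for peaks, then kept a fixed number of rows of smallest p and removed blacklisted regions. Versions are not given in the sources used here. The deposited lists give fold enrichment as a ratio, and -log10 p and -log10 q within each library. No values are scaled between libraries, so percentiles were used. Tags and expected tags were solved from the authors' fold and -log10 p (whole within 0.001 for 98.3% to 100% of summits). Members, lists and alternatives were chosen with earlier results of these data known. Named were all members, their strongest regions, regions private to muscle (overlap of 1 bp, up to 5 per locus), list genes called in muscle or behind a count of 5 or fewer, and the 3 most similar genes over 50 kb away. Some list genes are counted but not reported here by name. Tests were exact sign flips over 8 tissues with BH adjustment over all genes, tested on simulated data. Alternatives were a 1 kb window, fold ranking, q under 0.01 or 1e-06, distinct regions, protein-coding starts, equal depth, limma, leaving out each tissue, a 50 kb extension and 50% overlap. Tags were also scaled to the median promoter, a choice made after seeing the data. Computations used limma 3.58.1 in R 4.3.3 and scipy 1.17.1 in Python 3.11.15.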

Additional observations from a re-analysis of the deposited data

How the results depend on the processing

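The count of members called in muscle was 4 of 7 in the report (background 6.27% of all genes), 2 when ranked by fold enrichment (5.94%), 5 at equal depth (5.37%) and 6 with a 1 kb window (6.72%). It stayed at 4 under both q thresholds, distinct regions and protein-coding starts (5.21% to 6.9%). At least 1 region private to muscle was found for 6 of 7 members under every alternative run, against 29.3% of all genes in the report, 28% with q under 0.01, 40.9% with 50% overlap and 42.1% with a 50 kb extension. Fasting against fed called 0 genes under every alternative, and the lowest p of a member was 0.0625 (exact permutation). In all of these but limma, the floor of the exact test left little room for a call. The sign of the members' mean differences was not stable. It turned with a 1 kb window for Myod1 (8.09) and Myog (-4.53), at equal depth for Myf5 (-0.62) and Myog (-1.63), and with q under 0.01 for Myf5 (-4.20). It turned with q under 1e-06 for Pax3 (-4.60) and Six4 (5.08), and for Six4 also by fold (0.25) and over distinct regions (1.21). The causes were not tested. Leaving out 1 tissue gave mean differences from -14.35 to -4.37 for Myod1, -1.39 to 4.13 for Myf5, -7.21 to -0.22 for Myf6, -2.35 to 8.49 for Myog, 1.60 to 11.71 for Pax3, -0.51 to 5.80 for Pax7 and -4.30 to 2.34 for Six4. No fit by replicate number exists, since each group is 1 library. The level needed for a listing differed between libraries. In fed liver, with 2.80 background tags, 10 tags and a -log10 p of 3.79 sufficed. In fed brown adipose, with 12.8 background tags, the weakest -log10 p listed was 7.11.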
